A study of Homo sapiens with 6 samples.

Results

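The MYC, MAX and MXD network was examined between SET-2 cells and a derivative resistant to a BET inhibitor. Its members were the table's rows whose gene symbol was MYC, MYCN, MYCL, MAX, MXD1, MXD3, MXD4, MXI1, MNT or MGA. These are 10 genes of 19779 with a value in every library, each with 1 row. SET-2 is an established leukemia line of megakaryoblastic character, which the labels class as secondary acute myeloid leukemia. The groups were untreated parental cells (SET-2 Parental) and the untreated persister-resistant derivative (SET-2 OTX P/R), with 3 libraries each from growing cultures. OTX is read here as birabresib, an inhibitor of the BET bromodomain proteins. Only 1 derivative is named, and effects of resistance and of the separate history of that culture cannot be told apart. The series' design text calls the 3 cultures of each line biological replicates. The series title names an axis that ends in MYC.

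MAX is the hub of the network: its partners bind DNA as heterodimers with it, mostly at the E-box CACGTG. MYC, MYCN and MYCL pair with MAX to activate transcription, and MYC is a main driver of growth in leukemia. The MXD proteins (MXI1 is also known as MXD2) and MNT compete for MAX and bring the SIN3 corepressor with its histone deacetylases to the same sites, while MGA joins MAX to a polycomb complex. MLX is a second hub, which some MXD proteins and MNT can use in place of MAX. BET proteins sustain transcription of MYC, which is why its level is followed in cells that tolerate BET inhibitors.

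The 6 libraries had nearly the same sum of values, from 419375 to 419437, because the deposited abundances were quantile-normalized. Each value therefore reflects a place in the library's ranking, and sequencing depth is unknown. Log2 values correlated at 0.986 to 0.988 within the lines and at 0.948 to 0.949 between them. All 5 leukemic blast and progenitor markers had a mean of at least 1, as did 5 of 8 megakaryocyte markers. Within both classes markers moved in opposite directions. The ratio of OTX P/R to parental means was 1.94 for CD34, 0.511 for KIT and 0.395 for PTPRC among the blast markers. It was 4.35 for ITGB3, 3.46 for GP1BA and 0.638 for ITGA2B among the megakaryocyte markers. PF4 and MS4A1, of platelets and B cells, were listed at 0 in every library. The summed level of the 4 T and NK cell markers was 65.8 to 72.9 in parental and 29.4 to 31.6 in OTX P/R libraries, mostly from NKG7. That of the 5 fibroblast and endothelial markers was 7.38 to 8.65 and 16.9 to 18.1, mostly from PECAM1. The 4 epithelial markers summed to 8.93 to 11.7 and 13.9 to 16.2. The 4 erythroid markers summed to 5910.4 to 6909 and 4730.0 to 5271. The part of these differences in the results below was not tested.

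In OTX P/R cells MYC was higher and the repressing partners MXD3 and MXD4 were lower, while MAX and the 4 other tested partners did not pass. Of the 10 members, 8 had a mean of at least 1 over the libraries and were tested, and 1 rose, 2 fell and 5 did not pass. The test was limma on log2(value + 1) over 10741 genes, with calls at a Benjamini-Hochberg adjusted p under 0.05. Calls were made for 36.1% of all tested genes, 18.6% of them as higher and 17.5% as lower, so 3 of 8 members (37.5%) is near the background. The libraries of the lines did not overlap for the same 3 of the 8 members, against 51.6% of all tested genes.

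**Figure D1:**
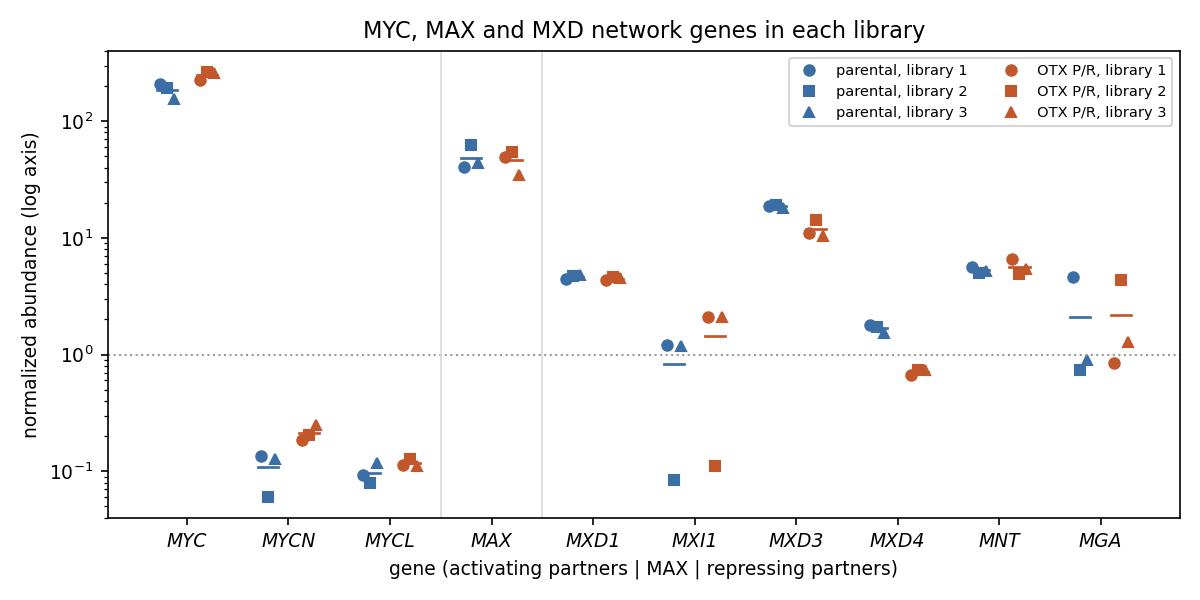
Normalized abundance of each member in every library on a log axis, with parental libraries in blue, OTX P/R libraries in orange, a symbol for each library number and bars at the group means. The dotted line marks a value of 1. MYC stands above all other members, MXD3 and MXD4 are lower in every OTX P/R library, and MXI1 and MGA are split within each line.

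MYC, the main activating partner, was measured at 207, 193 and 154 in the parental libraries and at 226, 264 and 261 in the OTX P/R libraries. Every OTX P/R library lay above every parental one, with the first OTX P/R library closest to the parental range. Its place among all genes went from 270, 292 and 391 in parental to 242, 201 and 204 in OTX P/R libraries, where 1 is the highest. The group means were 185 ± 27.0 and 250.5 ± 21.1 (SD, n = 3 per line), 1.36 times as high. The log2 fold change was 0.45 ± 0.12 SE (95% interval 0.15 to 0.75, limma adjusted p = 0.0336). MYC no longer passed when parental replicate 2 (adjusted p = 0.0640), OTX P/R replicate 2 (0.0994) or OTX P/R replicate 3 (0.0953) was left out, and passed without each of the others. It was also lost when genes of low values were tested (0.0584). The 24 tested genes nearest to MYC on chromosome 8 had a median log2 fold change of 0.06, with 5 higher and 4 lower.

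MYCN and MYCL, the paralogs of MYC used mainly in neural and epithelial tissues, stood far below a value of 1 and were not tested. MYCN had values of 0.135, 0.0607 and 0.128 in parental and 0.184, 0.206 and 0.250 in OTX P/R libraries, which do not overlap. MYCL had 0.0937, 0.0792 and 0.117 in parental and 0.114, 0.127 and 0.110 in OTX P/R libraries, which overlap. All 17367 genes with a value above 0 were then tested on log2(value + 1), which compresses such low values. MYCN passed upward (log2 fold change 0.13, limma adjusted p = 0.0430) and MYCL did not (0.03, adjusted p = 0.260). MYC made up 99.8% to 99.9% of the summed activating side in every library, so neither paralog moved that sum.

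MAX, the shared partner, was the second most abundant member, at 40.5, 62.5 and 43.5 in parental and 49.6, 54.3 and 34.7 in OTX P/R libraries. The lines overlap throughout. Its log2 fold change was -0.08, with an interval of -0.62 to 0.47 (limma adjusted p = 0.813), so changes of that size in either direction were not resolved. The RNA abundance of MYC exceeded that of MAX 3.08 to 5.10 times in parental and 4.56 to 7.51 times in OTX P/R libraries. These ranges overlap, and RNA ratios between genes do not give ratios of their proteins. The 24 tested neighbours of MAX on chromosome 14 had a median log2 fold change of 0.27, with 8 higher and 2 lower.

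MXD3, an MXD protein linked to S phase in proliferating cells, was the most abundant repressing partner in both lines. Its values were 18.6, 19.2 and 17.9 in parental and 11.0, 14.2 and 10.4 in OTX P/R libraries. All OTX P/R libraries lay below all parental ones, and the second of them was nearest. The means were 18.6 ± 0.657 and 11.9 ± 2.04 (SD, n = 3 per line), a log2 fold change of -0.61 ± 0.11 SE (interval -0.89 to -0.33, limma adjusted p = 0.00847). MXD3 lies on chromosome 5 among genes that were lower as well. Of its 24 nearest tested genes, 18 were lower and none higher, and their median log2 fold change was -0.63, close to that of MXD3 itself. The part of this shared shift in the fall of MXD3 was not tested.

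MXD4, linked to differentiated and resting cells, was expressed at a low level and fell. Its values were 1.80, 1.72 and 1.53 in parental and 0.674, 0.735 and 0.736 in OTX P/R libraries, with a wide gap between the lines. The means were 1.68 ± 0.137 and 0.715 ± 0.0358 (SD, n = 3 per line), a ratio of 0.424. The log2 fold change of value + 1 was -0.65 ± 0.07 SE (interval -0.82 to -0.47, limma adjusted p = 0.00104). This scale compresses low values: the same change was -1.13 with a pseudocount of 0.1 and -0.23 with one of 5, and both passed. Its neighbours on chromosome 4 did not shift together: their median was 0.04, with 5 of 24 higher and 5 lower. MXD4 thus lay well below its neighbours' median and MXD3 close to its own, a contrast that was not tested.

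**Figure D2:**
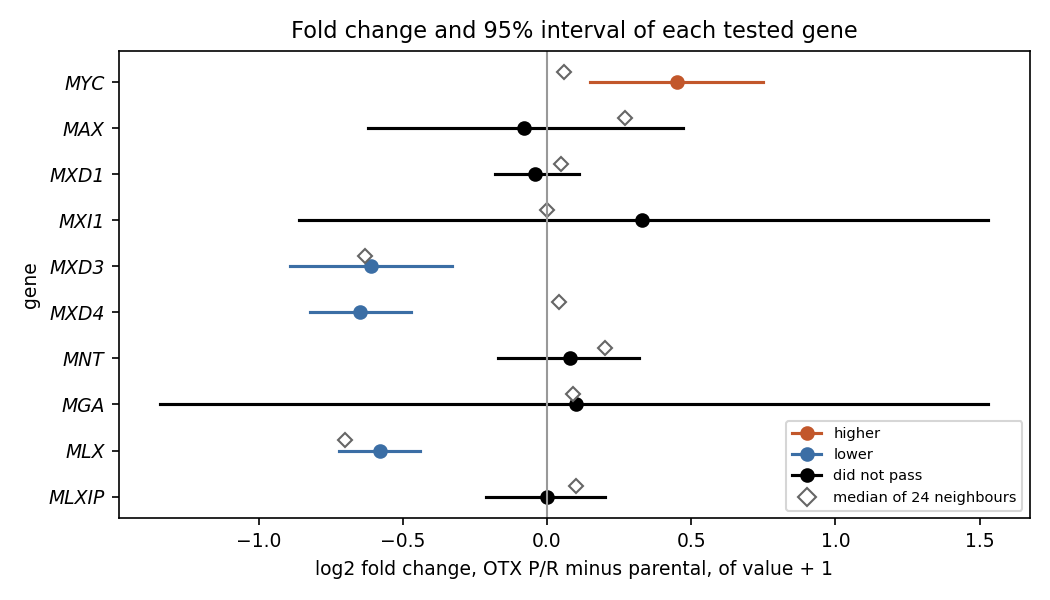
Log2 fold change of value + 1 (OTX P/R minus parental) with its 95% interval for the 8 tested members and for MLX and MLXIP. Open diamonds give the median of the 24 nearest tested genes on the chromosome. The diamond sits on the estimate for MXD3 and near that for MLX, and near 0 for MXD4 and MYC.

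The upstream sequences of the repressing partners show where the E-box letters occur. CACGTG, which reads the same on both strands, was searched in the 250 bases before each transcript start in RefSeq (GRCh38.p14). It is found at 6.34% of the 35116 starts in that table. MYC was not included, and of the 9 other members 2 held it at any start, MXD4 and MNT, beside 7.73% of all genes. The hub MLX held it too. The upstream sequences of MXD4 and MXD3, which fell, of MNT, which did not pass, and of MLX, which fell, are shown 5′ to 3′ with CACGTG in capitals:
MXD4, chr4:2262110-2262359, minus strand: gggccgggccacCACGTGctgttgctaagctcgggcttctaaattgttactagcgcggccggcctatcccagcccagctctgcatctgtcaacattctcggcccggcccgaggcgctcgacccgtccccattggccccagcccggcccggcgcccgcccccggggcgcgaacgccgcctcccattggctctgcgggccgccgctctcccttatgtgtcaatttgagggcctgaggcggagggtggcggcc
MXD3, chr5:177312753-177313002, minus strand: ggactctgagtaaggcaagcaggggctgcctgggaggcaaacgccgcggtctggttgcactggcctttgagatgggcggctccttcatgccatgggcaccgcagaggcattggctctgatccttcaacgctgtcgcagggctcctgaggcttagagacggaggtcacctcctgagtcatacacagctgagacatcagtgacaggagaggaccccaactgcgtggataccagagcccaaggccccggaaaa
MNT, chr17:2401061-2401310, minus strand: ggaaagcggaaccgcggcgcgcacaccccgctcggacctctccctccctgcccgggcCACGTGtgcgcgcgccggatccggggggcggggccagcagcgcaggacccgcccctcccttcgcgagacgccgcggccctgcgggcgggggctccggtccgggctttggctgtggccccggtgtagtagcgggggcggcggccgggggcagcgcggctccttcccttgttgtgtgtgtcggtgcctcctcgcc
MLX, chr17:42566850-42567099, plus strand: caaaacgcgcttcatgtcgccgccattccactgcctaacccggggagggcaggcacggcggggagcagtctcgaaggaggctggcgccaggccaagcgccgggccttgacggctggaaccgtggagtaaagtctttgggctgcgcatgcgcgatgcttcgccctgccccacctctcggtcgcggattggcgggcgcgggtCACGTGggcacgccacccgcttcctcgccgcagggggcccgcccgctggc
Counted back from the start, the first base of the motif lies at -238 in MXD4, at -193 in MNT and at -50 in MLX. MXD3 has no CACGTG in this window. Members with and without the letters are thus found both among those that fell and among those that did not pass.

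MXD1, the founding MXD protein, which is induced as blood cells differentiate, was nearly level. It had values of 4.42, 4.67 and 4.78 in parental and 4.34, 4.62 and 4.49 in OTX P/R libraries, and the lines overlap. Its log2 fold change was -0.04, and the narrow interval of -0.18 to 0.11 bounds any change (limma adjusted p = 0.675). MNT, a broadly expressed antagonist of MYC, was likewise of similar level, at 5.62, 5.01 and 5.18 in parental and 6.54, 4.95 and 5.42 in OTX P/R libraries. Its log2 fold change was 0.08, with an interval of -0.17 to 0.32 (adjusted p = 0.605). Of its 24 neighbours on chromosome 17, 10 were higher and 1 lower, with a median of 0.20.

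MXI1 and MGA differed far more between libraries of a line than between the lines. MXI1, an MXD protein that antagonizes MYC in growth control, had values of 1.22, 0.0834 and 1.19 in parental and 2.09, 0.111 and 2.08 in OTX P/R libraries. In each line the library numbered 2 was low and the other two were close to each other. The highest library exceeded the lowest 14.7 times in parental and 18.9 times in OTX P/R cells, and only 3 of the 10741 tested genes, MXI1, AUTS2 and MED27, reached 14.7 in both lines. The log2 fold change of 0.33 had an interval of -0.86 to 1.53 (limma adjusted p = 0.635).

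MGA, a very large protein with a T-box and a MAX-binding domain, had values of 4.64, 0.731 and 0.899 in parental and 0.855, 4.35 and 1.29 in OTX P/R libraries. Its high libraries were parental 1 and OTX P/R 2, which do not share a number. The highest exceeded the lowest 6.35 and 5.09 times, and 18 tested genes including MGA reached 5.09 in both lines. Its log2 fold change was 0.10 with an interval of -1.34 to 1.53 (limma adjusted p = 0.911), so the data hardly bound a change in MGA. Values of single transcripts were not used here, and whether the gene totals of MXI1 and MGA hold the same transcripts in each library was not tested.

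The order of the members by level was alike in both lines at the top. MYC came first, followed by MAX, MXD3 and MNT, and the libraries of each did not overlap with those of the next. MNT did not overlap with MXD1 below it either. MXD1 and MGA overlapped in both lines. MXD4 stood in the seventh place in parental cells, overlapping with MGA and not with MXI1, and in the eighth in OTX P/R cells, where MXI1 stood above it and overlapped with it. MYCN and MYCL were last, overlapping in parental and not in OTX P/R cells. These abundances are per transcript length, as StringTie gives them, and the normalization keeps the order within a library.

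The balance of activating over repressing partners was higher in every OTX P/R library. It was formed in each library as the log2 of MYC + MYCN + MYCL over MXD1 + MXD3 + MXD4 + MXI1 + MNT + MGA. It compares RNA abundances, and neither the proteins nor their dimers with MAX were measured here. It was 2.51, 2.62 and 2.30 in parental and 3.15, 3.19 and 3.42 in OTX P/R libraries, with no overlap. The means were 2.47 ± 0.16 and 3.25 ± 0.14 (SD, n = 3 per line), a difference of 0.78. As a ratio, the activating sum exceeded the repressing sum 5.58 ± 0.622 times in parental and 9.57 ± 0.980 times in OTX P/R cells. No p is given for this score, since it is formed over chosen members and its direction follows from MYC and MXD3.

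Both sides contributed to the difference. The log2 of the activating sum was 0.45 higher and that of the repressing sum was 0.33 lower in OTX P/R cells. The repressing sum was 36.3, 31.4 and 31.5 in parental and 25.5, 29.0 and 24.4 in OTX P/R libraries. MXD3 made up 51.2%, 61.1% and 56.9% of it in parental and 43.2%, 49.0% and 42.6% in OTX P/R libraries. The mean repressing sum went from 33.1 to 26.3 and MXD3 alone from 18.6 to 11.9, so most of that fall was in MXD3. Its neighbours on chromosome 5 had a median log2 fold change of -0.63, and the part of their shared shift in the balance was not tested. MYC exceeded MXD3 8.62 to 11.1 times in parental and 18.6 to 25.1 times in OTX P/R libraries. Leaving out MXI1 and MGA, the members that were split within the lines, gave a difference of 0.86, and this form was chosen after the data were seen. Weighting members equally, as a difference of mean log2(value + 1), lowered it to 0.33, with parental libraries at 0.24, 0.63 and 0.41 and OTX P/R libraries at 0.71, 0.77 and 0.79. MAX was 1.12 to 1.99 times the repressing sum in parental and 1.42 to 1.94 times in OTX P/R libraries.

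**Figure D3:**
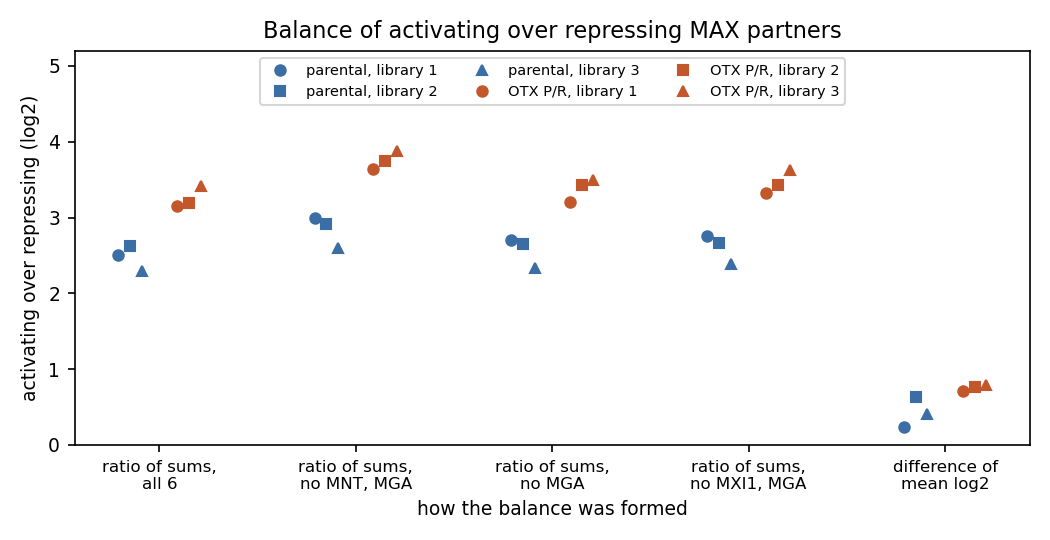
Balance of the RNA abundance of activating over repressing MAX partners (log2) in each library, formed in 5 ways. Parental libraries are in blue and OTX P/R libraries in orange. The OTX P/R libraries lie above the parental ones in each form, by 0.78 with all 6 repressing partners and by 0.33 when members are weighted equally.

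In the parallel MLX branch the hub fell and its main partner did not pass. MLX had values of 27.4, 24.6 and 25.0 in parental and 17.0, 16.5 and 17.1 in OTX P/R libraries, which are far apart. Its means were 25.7 ± 1.52 and 16.9 ± 0.335 (SD, n = 3 per line; log2 fold change -0.58 ± 0.06 SE, limma adjusted p = 6.94e-04). All 24 of its nearest tested genes on chromosome 17 had a log2 fold change below 0, 22 of them passed as lower, and their median was -0.70. MLXIP, also known as MondoA, a glucose-sensing partner of MLX, stood at 16.9 ± 1.55 and 16.8 ± 1.08 and did not pass (adjusted p = 0.990). MLXIPL, the related ChREBP of liver, was near 0 and was not tested. Of the MondoA response genes, TXNIP fell by 0.40 on the log2 scale and ARRDC4 did not pass (log2 fold change -0.14, adjusted p = 0.239).

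**Figure D4:**
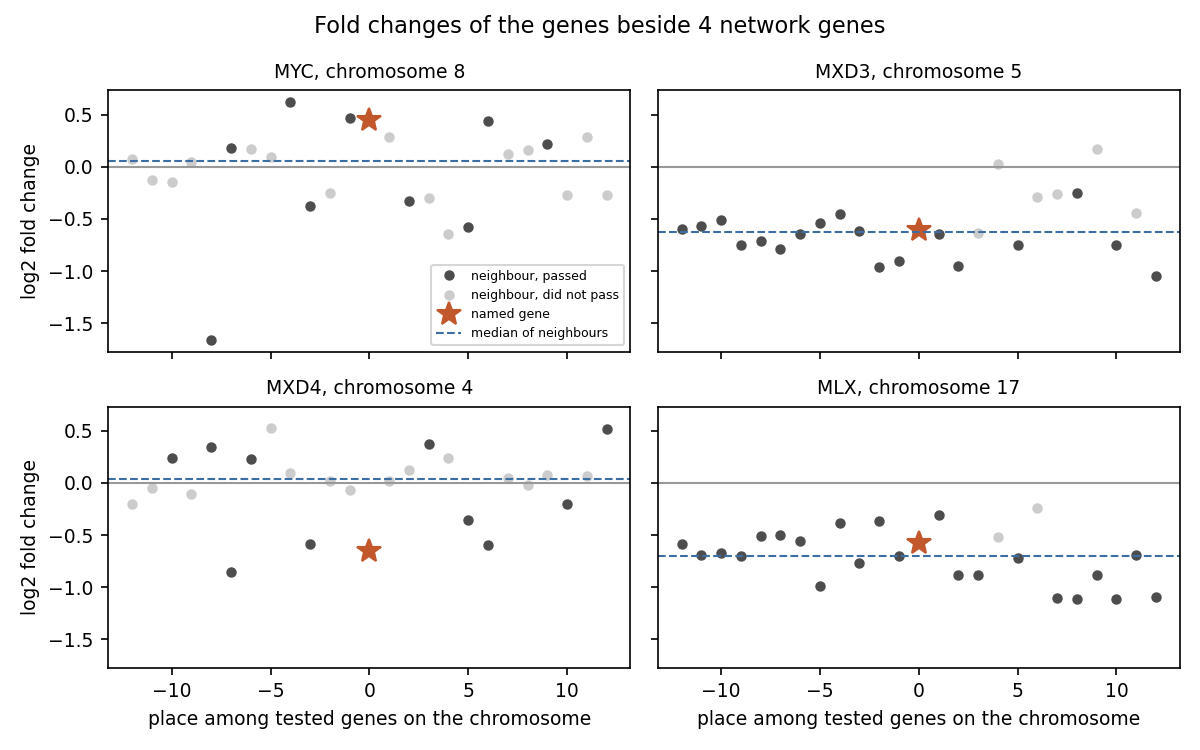
Log2 fold changes of the 12 tested genes on each side of MYC, MXD3, MXD4 and MLX, by their place on the chromosome, with the named gene as a star. Nearly all neighbours of MXD3 and MLX lie below 0, while those of MYC and MXD4 scatter around it.

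Few of the corepressors through which MXD proteins and MGA act were called, though most genes of the whole table were not either. Of 16 SIN3 complex genes 1 fell, none rose and 15 did not pass, a called share of 6.25% beside 36.1% of all tested genes, with a median log2 fold change of -0.06 beside 0.02 over all tested genes. The member that fell was SAP30L, a SIN3-binding subunit, from 5.66 ± 0.904 to 2.77 ± 0.567 (limma adjusted p = 0.00723), and 21 of its 24 neighbours on chromosome 5 were lower. The scaffold SIN3A had a log2 fold change of 0.04 and the deacetylase HDAC1 stood at 47.5 ± 0.434 and 49.4 ± 1.12. The deacetylase HDAC2 was not resolved, with parental values of 50.7, 21.5 and 24.4. Its log2 fold change was -0.13, with an interval of -0.97 to 0.71. HDAC1 and HDAC2 are also counted among the partners of MGA below. Of 13 tested partners of MGA in its polycomb complex, none passed in either direction by limma, beside the same 36.1%, and the median was 0.06. At an unadjusted p under 0.05 there were 2, L3MBTL2 and CBX3. L3MBTL2, a chromatin-binding subunit, was at 13.5 ± 1.29 and 11.2 ± 0.861 (adjusted p = 0.0772). RING1 was below the tested range.

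Of 12 coactivators of MYC 1 rose, 2 fell and 9 did not pass, with a median of -0.06. Their called share of 25% was below the 36.1% of all tested genes, a difference that was not tested. TRRAP, the scaffold that brings histone acetyltransferases to MYC, rose from 5.56 ± 0.803 to 8.08 ± 1.38 (limma adjusted p = 0.0420), and 14 of its 24 neighbours on chromosome 7 were higher. The TRRAP call was lost without any 1 of 5 libraries, parental replicate 1 being the exception, and its adjusted p then reached 0.116. KAT2A, an acetyltransferase that acts with TRRAP, fell from 19.7 ± 1.43 to 12.8 ± 0.748, among chromosome 17 genes of which 21 of 24 were lower. RUVBL2, a helicase-like cofactor of MYC, fell by 0.37 on the log2 scale, and its neighbours had a median of 0.00.

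Of 4 partners through which MYC represses genes, 1 rose, 1 fell and 2 did not pass. That is 50% called in a list of 4, beside 36.1% of all tested genes. DNMT3A, a DNA methyltransferase, rose from 8.54 ± 1.27 to 13.0 ± 1.75 (limma adjusted p = 0.0220). That call was lost without OTX P/R replicate 1 (adjusted p = 0.0595) or replicate 3 (0.0567). HDAC3, a histone deacetylase, fell from 40.6 ± 0.991 to 27.6 ± 2.14 (adjusted p = 0.00160), where 12 of 24 neighbours were higher and 10 lower. ZBTB17, known as MIZ1, stood at 16.4 ± 3.35 and 21.4 ± 5.11 and SP1 had a log2 fold change of -0.05, and neither passed.

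Of 20 tested genes that set the stability of MYC protein 4 rose, 3 fell and 13 did not pass, with a median of 0.04. The called share was 35%, near the 36.1% of all tested genes. PPP2CA, the catalytic subunit of phosphatase 2A, which promotes MYC turnover, fell from 49.4 ± 1.96 to 30.3 ± 0.650 (limma adjusted p = 1.67e-04), and 21 of its 24 neighbours on chromosome 5 were lower. KIAA1524, which encodes the phosphatase inhibitor CIP2A, rose from 7.69 ± 0.567 to 9.39 ± 0.369. SKP2 and PLK1, a ubiquitin ligase subunit and a mitotic kinase, had log2 fold changes of 0.25 and 0.33 and rose. SET, another phosphatase inhibitor, rose by 0.23. The KIAA1524 call was lost without any 1 library other than parental replicate 3 (adjusted p up to 0.0892). The SKP2 call was lost without any 1 library (0.0531 to 0.0951). That of PLK1 was lost without parental replicate 3 or any 1 OTX P/R library (up to 0.128), and also when low genes were tested (0.0732) or the prior had no trend (0.0546). PIM1 and AURKA, kinases that stabilize MYC, had log2 fold changes of -0.38 and -0.19 and both fell. The AURKA call did not hold without 1 of 4 libraries (up to 0.0821). FBXW7, the ubiquitin ligase subunit that marks MYC for degradation, did not pass (3.73 ± 0.859 and 3.15 ± 0.539).

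Of 19 tested genes that control transcription or RNA of MYC 2 rose, 1 fell and 16 did not pass, with a median of 0.11. The called share was 15.8%, below the 36.1% of all tested genes, a difference that was not tested. CNBP, which binds the MYC promoter, rose from 234 ± 2.99 to 277 ± 2.91 (limma adjusted p = 0.00349), and ELAVL1, an RNA-stabilizing protein, rose by a log2 fold change of 0.22. LEF1, a Wnt pathway factor, fell by 0.38 on the log2 scale. The ELAVL1 call was lost without parental replicate 3, OTX P/R replicate 2 or OTX P/R replicate 3 (up to 0.0682), and the LEF1 call without any 1 parental library or OTX P/R replicate 1 (up to 0.0928). The genes of the axis upstream of MYC, CTNNB1, TCF7L2 and JMJD6, had log2 fold changes of 0.16, 0.37 and 0.15 and did not pass. TCF7L2 was low, at 0.761 ± 0.349 in parental and 1.26 ± 0.335 in OTX P/R cells, a ratio of 1.66. Its log2 fold change was 0.70 with a pseudocount of 0.1 and 0.12 with one of 5, and neither passed. TCF7L2 passed without parental replicate 2 (0.53, adjusted p = 0.0467). Of the genes named for binding MYC, MYCBP2 rose by a log2 fold change of 0.30, though not without 4 of the libraries taken singly (adjusted p up to 0.0804). MYCBP did not pass (15.6 ± 2.57 and 23.4 ± 5.31, adjusted p = 0.0730), but did without OTX P/R replicate 3 (adjusted p = 0.0198). MYCBPAP was below the tested range.

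Among 65 tested genes known as E-box targets of MYC and MAX, 14 rose, 8 fell and 43 did not pass, a called share of 33.8% that is near the 36.1% of all tested genes. In nucleotide and polyamine synthesis 4 of 13 rose and none fell (30.8% called). The median log2 fold change was 0.09 over the 65 targets and 0.12 over these 13. CTPS1, of cytidine nucleotide synthesis, rose from 31.2 ± 0.515 to 43.3 ± 0.676, and SRM, spermidine synthase, by a log2 fold change of 0.30. ODC1 rose by 0.52 and CAD by 0.25. Of 22 genes of ribosome biogenesis and translation 3 rose, 3 fell and 16 did not pass, with a median of -0.01. Their called share was 27.3%. PUS7, a pseudouridine synthase, rose by 0.82 in a region of chromosome 7 where 22 of 24 neighbours were higher, and EIF4EBP1, a brake on translation, rose by 0.33. NCL, nucleolin, rose by 0.31, a call lost without 4 of the libraries taken singly (limma adjusted p up to 0.0767).

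NPM1, the nucleolar chaperone, fell from 621 ± 269 to 211 ± 9.53, and NOP16 and DKC1 fell by 0.51 and 0.21 on the log2 scale. The parental libraries of NPM1 ranged from 333 to 864, its copies elsewhere in the genome can share reads, and the call was lost without parental replicate 1 or any 1 OTX P/R library (limma adjusted p up to 0.0617). NPM1 and NOP16 lie on chromosome 5, where 17 and 22 of 24 neighbours were lower.

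Of 12 tested cell cycle targets 3 rose, 1 fell and 8 did not pass, with a median of 0.21. The called share was 33.3%, near the 36.1% of all tested genes. CUL1, a ubiquitin ligase scaffold, rose from 17.2 ± 1.94 to 36.1 ± 1.07 on chromosome 7, where 20 of 24 neighbours were higher. CDC25A, a phosphatase that activates cyclin-dependent kinases, rose from 28.8 ± 3.23 to 41.3 ± 2.92. ID2, an inhibitor of helix-loop-helix factors, fell from 122 ± 2.93 to 71.1 ± 2.38. Of 18 targets in metabolism, transport and mitochondria 4 rose, 4 fell and 10 did not pass, with a median of 0.16. Here 44.4% were called, beside the same 36.1%, a difference that was not tested. The amino acid transporters SLC1A5 and SLC7A5 rose by 0.51 and 0.42, the mitochondrial C1QBP by 0.33 and the glycolytic enzyme ENO1 by 0.22. TFRC, the transferrin receptor, fell from 219 ± 30.2 to 144 ± 6.53, and GOT1 and SLC2A1 had log2 fold changes of -0.26 and -0.22. The lactate transporter SLC16A1 fell with them (-0.15).

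Of the E-box targets, 53 outside chromosome 8 could be matched to upstream sequences, and 14 of them (26.4%) held CACGTG in the 250 bases before a start. It was held at any start by 7.73% of the 27305 genes with upstream sequences. The targets were listed as E-box genes, so their share is a description. Among these 14 genes 4 rose (ODC1, SRM, SLC7A5 and SLC1A5), none fell and 10 did not pass, with a median log2 fold change of 0.23. Among the 39 without the letters 8 rose, 7 fell and 24 did not pass, with a median of 0.03. The difference between these groups of genes was not tested.

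Of 13 tested genes known to be repressed by MYC 3 rose, 4 fell and 6 did not pass, with a median of 0.12. The called share was 53.8%, beside 36.1% of all tested genes, a difference that was not tested. Over all tested genes 18.6% rose and 17.5% fell, so calls in both directions are not particular to the list. THBS1, an inhibitor of vessel growth, rose from 8.57 ± 1.01 to 22.8 ± 1.91 (limma adjusted p = 2.47e-04), GADD45A, a stress response gene, from 11.6 ± 0.185 to 20.8 ± 0.851, and the cell cycle inhibitor CDKN2C by a log2 fold change of 0.37. NDRG2, a differentiation gene, fell from 3.36 ± 0.170 to 1.11 ± 0.636. KLF6 fell by 0.71, CEBPD by 0.59 and NDRG1 by 0.57 on the log2 scale of value + 1, which compresses low values. KLF6, CEBPD and NDRG1 had ratios of OTX P/R to parental means of 0.471, 0.593 and 0.540. CDKN1A, the cell cycle inhibitor p21, did not pass (5.51 ± 0.245 and 6.59 ± 0.584, adjusted p = 0.0718).

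**Figure D5:**
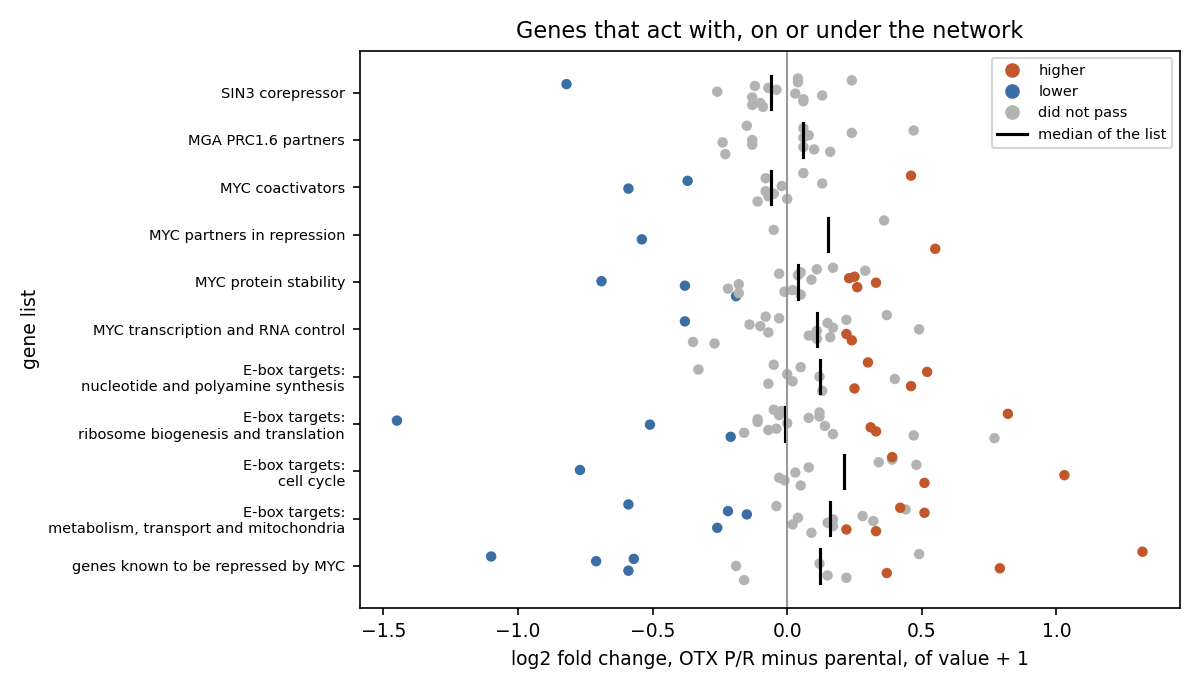
Log2 fold change of value + 1 (OTX P/R minus parental) of each tested gene in the lists around the network, in orange where it rose, blue where it fell and grey where it did not pass, with the median of each list as a bar. Lists with fewer than 4 tested genes are not drawn. The medians of the drawn lists lie between -0.06 and 0.21, while single genes reach -1.45 (NPM1) and 1.32 (THBS1).

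The ranked genes most like MYC over the 6 libraries, by Pearson correlation of log2(value + 1), were USP4, SPNS1, ELOVL6, LANCL3 and TOMM40. Their r was from 0.989 to 0.999. Symbols of antisense transcripts, small RNAs, clones, uncharacterized loci, open reading frames and the FAM and KIAA series were left out of this ranking. TOMM40, of the mitochondrial import pore, had 275, 269 and 249.7 in parental and 296, 313 and 309.9 in OTX P/R libraries, with the third parental library lowest as for MYC. ELOVL6, a fatty acid elongase, had 29.6, 29.7 and 21.7 in parental and 34.4, 40.6 and 39.3 in OTX P/R libraries. The most opposite of the ranked genes were B3GAT2, CLEC16A, ZNF354A, NICN1 and IGBP1, with r from -0.996 to -0.989. Among the members, MXD4 and MXD3 had r of -0.75 and -0.70 with MYC and MAX had -0.12. These correlations describe 6 libraries in which the lines differ, and the best of so many genes will be high in so few libraries.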

How the data were processed

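Total RNA of 6 cultures, 3 of each line, was sequenced. The submitters' processing notes list StringTie, HISAT2, Trim Galore and hg19. No source used here gives their versions or says whether values are FPKM or TPM. The deposited signal is a quantile-normalized abundance per gene: sorted values of 1 or more differed by at most 0.156% from their mean over libraries. Of 19785 genes 6 with a missing value were left out, and depth is unknown. Groups and replicate numbers came from the titles, which do not say whether cultures of the same number are tied across lines.

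Values were transformed as log2(value + 1), which compresses the fold changes of genes with low values. Genes whose mean reached 1 (10741) were fitted with limma 3.58.1 in R 4.3.3 (eBayes with a trend, two-sided, Benjamini-Hochberg over all tested genes). The code of the fit was also run on simulated data with independent noise and far fewer changed genes than were called here. That run checks the code and does not bear on these calls. P-values set the difference between the lines against the spread of cultures within them, moderated over all tested genes. An exact permutation of 3 against 3 cannot give a p under 0.1. Neighbours were the 12 tested genes on each side by GENCODE v29 order, which placed 10694 genes. Symbols repeated in the table were taken from the row with the higher mean. Named genes were the members, the axis genes, up to 3 called genes per direction in each list, all genes of lists with 4 or fewer, and the 5 most and least like MYC. Other list genes are given as examples or beside their upstream sequence and were chosen after their values were seen. Some list genes are counted but not reported here by name. Members and lists were chosen with earlier results of these data known. Python 3.11.15 with NumPy 2.4.6, pandas 2.3.3 and Matplotlib 3.10.9 made tables and plots. Alternatives were another pseudocount, filter, prior, centring, a replicate block, each library left out, other forms of the balance and a window of 6 genes.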

Additional observations from a re-analysis of the deposited data

How the results depend on the processing

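MXD3 and MXD4 were called lower under every alternative in which they were tested (MXD4 was not, with a minimum mean of 5). The count of members called was 2 or 3 under every alternative. MYC was replaced by MYCN when low genes were tested. The difference in balance was 0.33 with mean log2 values in place of sums, where low members weigh as much as abundant ones. Leaving out single libraries turned the sign of members that did not pass: MAX ranged from -0.20 to 0.11, MXI1 from -0.01 to 0.82, MNT from -0.02 to 0.15 and MGA from -0.36 to 0.64. MLXIP ranged from -0.07 to 0.05 and SP1 from -0.09 to 0.02. The balance ranged from 0.69 to 0.85. With the replicate number as a block, 3159 genes were called in place of 3879, and MYC was not among them (adjusted p = 0.0793), which left MXD3 and MXD4 as the called members. That block also ended the calls of TRRAP (0.0904), DNMT3A (0.0774), PLK1 (0.0941), SKP2 (0.0793), KIAA1524 (0.0505), AURKA (0.0511), LEF1 (0.0514) and MYCBP2 (0.0515), and of USP4, SPNS1, ELOVL6, TOMM40 and CLEC16A (0.0656 to 0.103). TCF7L2 (0.0489) and MYCBP (0.0366) passed with it. Testing low genes ended those of TRRAP (0.0699), LEF1 (0.0556) and PLK1, and of USP4, SPNS1, ELOVL6 and CLEC16A (0.0585 to 0.0784). Same-numbered libraries did not deviate together (correlations -0.06, -0.03 and 0.00). Such correlations cannot exclude that cultures of the same number were handled together, and MXI1 was low in library 2 of both lines. The normalization removes any change in total RNA, and depth, and so counting error, is unknown.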
